A study of Canis lupus familiaris with 16 samples.

Results

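The expression of 9 genes that regulate apoptosis was compared between 3 types of canine soft tissue sarcoma: fibrosarcoma (FS), peripheral nerve sheath tumor (PNST) and perivascular wall tumor (PWT). The genes were chosen by name and were *PAWR*, the anti-apoptotic genes *BCL2*, *BCL2L1* and *MCL1*, the effector genes *BAX* and *BAK1*, the BH3-only genes *BCL2L11* and *BID*, and the caspase inhibitor *XIAP*. All 9 were found among the 41818 genes with deposited read counts. All 9 also belonged to the 15408 genes with at least 10 reads in at least 4 tumors, to which the tests were applied. *PAWR* differs from the other 8 genes in that the study had picked it from these same tumors for its level in PWT, so its values are described without a test wherever PWT takes part.

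RNA came from archived formalin-fixed, paraffin-embedded sections of 16 tumors of privately owned dogs of several breeds, with 1 library per tumor, and no normal tissue was part of the data analysed here. By the molecular identity given in the labels there were 4 FS from dogs aged 9 to 13 years, 6 PNST from dogs aged 8 to 13 years and 6 PWT from dogs aged 2 to 14 years. For 2 tumors this identity differs from the histological diagnosis, since the PNST S1-10 was diagnosed as a PWT and the PWT S2-08 as an FS. The identity rests on expression in these libraries, so the groups were set in part by the counts tested here. The labels name no treatment and no genotype.

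Between 507728 and 4311876 reads per tumor fell on genes. The 9 tumors with S1 names were sequenced in 3 runs each and the 7 with S2 names in 1 run, and this prefix was unevenly spread, with 5 of 6 PWT but 1 of 4 FS and 1 of 6 PNST carrying S2. The PNST S1-04 and S1-05 have identical labels and may come from 1 dog. Levels are given as CPM, counts per 1000000 counts on the genes tested, with this total scaled between tumors by TMM. Defining markers of the 3 types overlapped between them. The 6 fibroblast markers summed to between 17591 and 98231 CPM in FS, between 13970.5 and 35216 CPM in PNST and between 8996 and 20969.7 CPM in PWT. Of the 6, edgeR called 3 higher in FS against the other types, where 9.46% of all genes tested were called. *COL1A1*, *COL1A2*, *COL3A1* and *LUM* had their highest mean in FS, but *DCN* and *PDGFRA* had their lowest. *DCN* had means of 1252 CPM in FS, 3153 CPM in PNST and 3391 CPM in PWT, and *PDGFRA* 283, 644 and 406 CPM. The 7 pericyte and smooth muscle markers summed to between 570 and 1502 CPM in FS, between 375 and 781 CPM in PNST and between 357 and 674 CPM in PWT, with the lowest median in PWT. Of these 7, edgeR called 2 higher in FS against the other types. The 6 Schwann cell markers summed to between 16.6 and 83.3 CPM in FS, between 22.8 and 91.7 CPM in PNST and between 12.3 and 42.0 CPM in PWT. Whole sections were used, and a smaller number of cells of a type cannot be told apart from less RNA per cell.

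Apoptosis through the mitochondrial pathway is governed by the BCL2 family. BH3-only proteins such as BIM and BID sense stress and either engage BAX and BAK1, which open the outer mitochondrial membrane, or occupy the anti-apoptotic proteins BCL2, BCL-XL and MCL1, which hold BAX and BAK1 in check. Cytochrome c released from mitochondria activates caspases through the apoptosome, and XIAP binds and blocks those caspases. PAWR, also called prostate apoptosis response-4, is a leucine zipper protein that promotes apoptosis of many tumor cells, partners with atypical protein kinase C, WT1 and DAPK3, and is known for lowering BCL2.

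The main test, edgeR, called none of the 8 genes besides *PAWR* different in any tumor type, while DESeq2 called *BCL2* in FS. A gene was called when the p-value from edgeR's quasi-likelihood test, adjusted by Benjamini-Hochberg over all genes tested, was under 0.05 and the absolute log2 fold change exceeded 1. By this rule 0 of the 8 genes were called in FS against the other types, where 9.46% of all genes tested were called. In PWT against the other types 0 of 8 were called against 2.12% of all genes, and in PNST against the other types 0 of 8 against 0% of all genes. Before adjustment, p-values under 0.05 were found for 3 of the 8 genes in FS (*BCL2*, *BCL2L1* and *BID*; 25.4% of all genes), 2 in PWT (*MCL1* and *XIAP*; 22.4% of all genes) and 0 in PNST (15.7% of all genes). DESeq2, the other tool run, called 1 of the 8 in FS, namely *BCL2*, against 9.79% of all genes, and 0 of 8 in PWT and in PNST, against 5.02% and 1.54% of all genes. None of the 8 genes separated a type fully, as every gene overlapped between each type and the other types. Among all genes tested, 1.56% lay above and 1.64% below every other tumor in all FS, while 0.467% and 0.279% did so in all PWT and 0.188% and 0.0974% in all PNST.

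**Figure D1:**
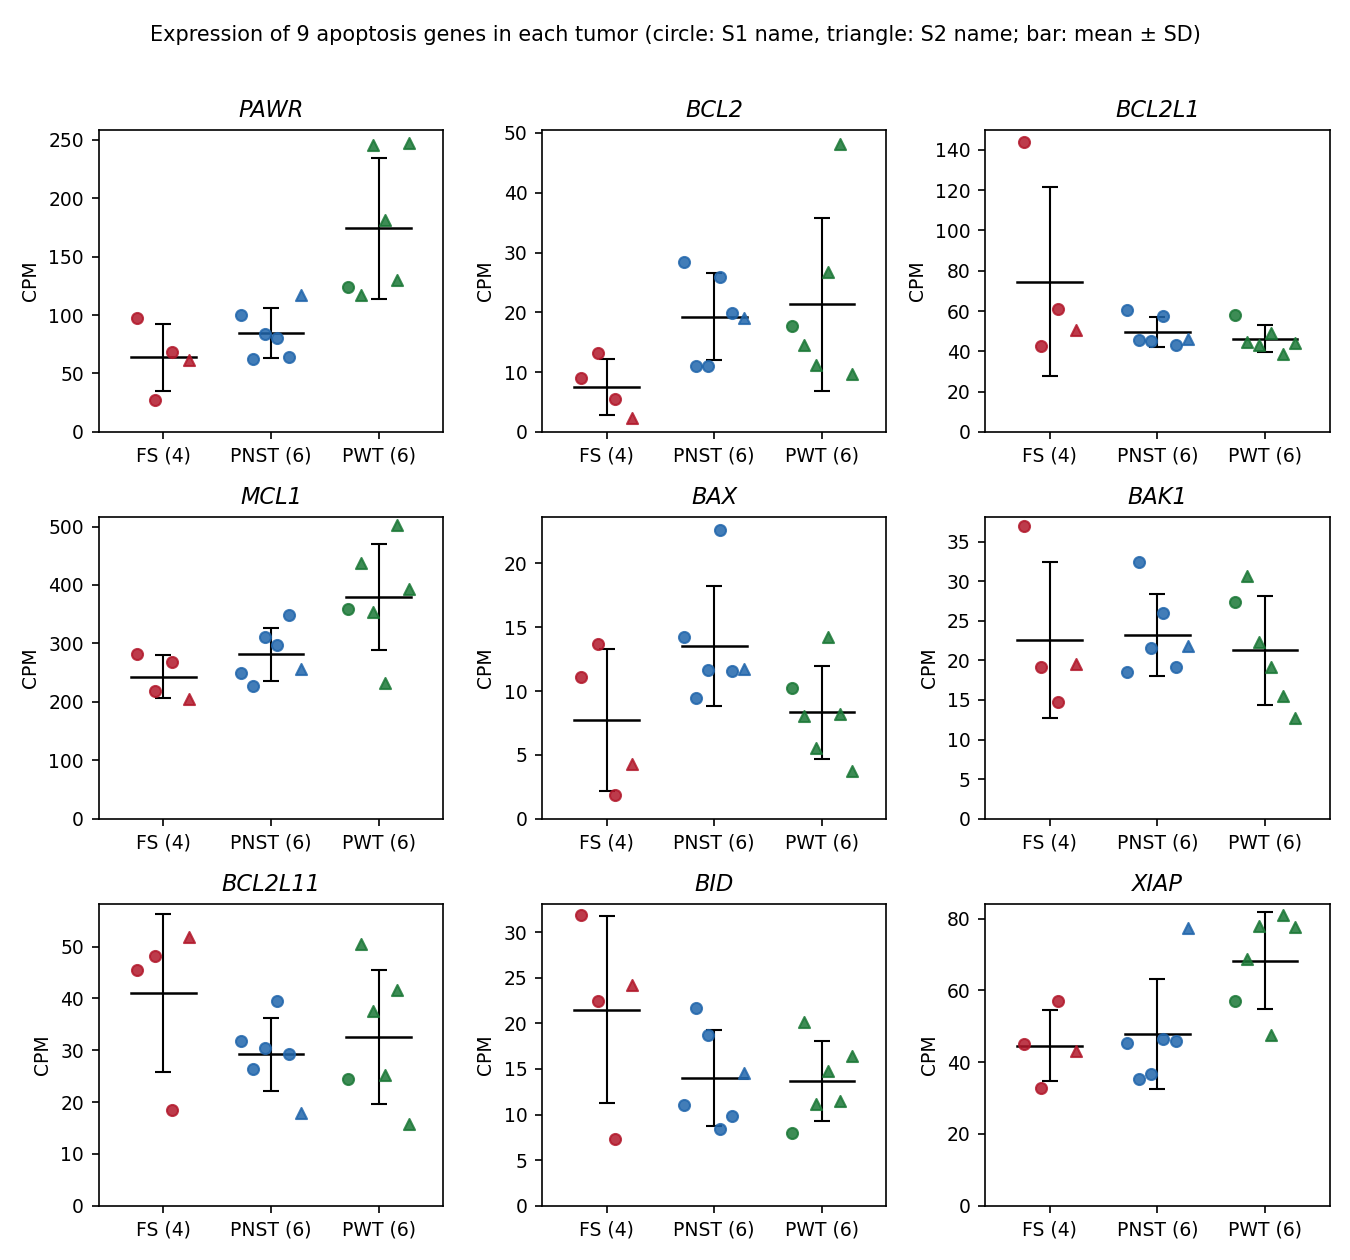
Expression of the 9 genes in CPM (vertical axis) in each of the 16 tumors, by tumor type. Circles are tumors with S1 names, triangles are tumors with S2 names, and the bars give the mean and SD. All 6 PWT lie above the other tumors for *PAWR*, 3 of 4 FS lie below all others for *BCL2*, and the FS S1-02 stands apart at 144 CPM for *BCL2L1*.

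*PAWR* is a pro-apoptotic gene that the study listed as higher in PWT, beside *SAMD8* and *UBXN2A*. It was the only gene of the set of 9 whose levels in 1 type did not overlap with those of the others. CPM were computed after TMM scaling, with runs of a tumor summed. The FS held 97.9 CPM (S1-02), 27.4 CPM (S1-11), 68.1 CPM (S1-12) and 61.3 CPM (S2-06). The 6 PNST ranged from 62.2 CPM through a median of 82.2 CPM to 117.1 CPM in S2-07. The 6 PWT ranged from 117.5 CPM in S2-03 through a median of 156 CPM to 248 CPM in S2-11, with S2-04 close to the top at 245 CPM. All 6 PWT thus lay above all 10 other tumors, with a margin between the lowest PWT and the highest PNST smaller than the counting error of either. As a 95% Poisson interval, which covers counting error only, the 117.5 CPM of S2-03 extend from 104 to 132 CPM and the 117.1 CPM of S2-07 from 102 to 134 CPM. Means were 174 ± 60.3 CPM in PWT (SD, n = 6), 84.5 ± 21.2 CPM in PNST (n = 6) and 63.7 ± 28.9 CPM in FS (n = 4).

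The fitted log2 fold change of *PAWR* in PWT was 1.19 ± 0.26 (SE) against the other types, or 2.28-fold. It was 1.45 ± 0.34 against FS and 1.04 ± 0.29 against PNST. These contrasts share the 6 PWT and chose the gene, and are given as a description. The remaining contrast of *PAWR*, FS against PNST, was tested. Its log2 fold change was −0.41 ± 0.33 and the adjusted p-value from edgeR's quasi-likelihood test was 0.494, so *PAWR* did not differ between these types beyond the spread of the tumors. Without the FS S1-11, the lowest tumor of all, this value was −0.16, and without S1-02 it was −0.71.

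The prefix of the tumor name also moved with *PAWR*. The single PWT with an S1 name, S1-07, held 124 CPM, above the 27.4 to 97.9 CPM of the 3 FS and the 62.2 to 99.8 CPM of the 5 PNST with S1 names. Among tumors with S2 names, the single FS held 61.3 CPM, the single PNST 117.1 CPM and the 5 PWT 117.5 to 248 CPM. The log2 fold change in PWT was 0.94 when the prefix entered the model and 1.06 in the S2 tumors alone. Of the reassigned tumors, the PWT S2-08 held 182 CPM and the PNST S1-10 held 63.8 CPM. Their molecular identity was set from genes specific to each type in these same libraries. The study lists *PAWR* among such genes, so these levels are no independent check of the identity. With tumors grouped by histology the log2 fold change in PWT was 0.81.

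Of the anti-apoptotic genes, *BCL2*, the founding member of the family, was low in FS. The FS held 8.96 CPM (S1-02), 13.2 CPM (S1-11), 5.52 CPM (S1-12) and 2.38 CPM (S2-06), from only 25, 24, 3 and 5 reads. The PNST ranged from 11.0 through a median of 19.5 to 28.4 CPM and the PWT from 9.72 through a median of 16.1 to 48.2 CPM in S2-09. Of the 4 FS, 3 lay below all other tumors, while S1-11 lay within the range of both other types. The 3 reads of S1-12 give a 95% Poisson interval of 1.14 to 16.1 CPM and the 5 reads of S2-06 one of 0.771 to 5.54 CPM.

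The log2 fold change of *BCL2* in FS against the other types was −1.40 ± 0.47, and its adjusted p-value of 0.0629 from edgeR's quasi-likelihood test missed the threshold. DESeq2 gave −1.37 with an adjusted p-value of 0.0348. Adjusted p-values ranged from 0.0348 to 0.461 over the 27 alternative settings. By pairs, PWT exceeded FS by 1.47 ± 0.51 on the log2 scale (edgeR adjusted p-value 0.0667, DESeq2 0.0435), and FS against PNST gave −1.32 ± 0.51 (edgeR adjusted p-value 0.121). With tumors grouped by histology, under which the PWT S2-08 at 26.8 CPM counts as an FS, the value in FS was −0.76 (edgeR adjusted p-value 0.461). In the S1 tumors alone it was −0.95 (edgeR adjusted p-value 0.211). PNST and PWT differed from each other in *BCL2* by 0.15 ± 0.42 on the log2 scale (edgeR adjusted p-value 0.869).

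*BCL2L1* encodes BCL-XL, another guard of the mitochondrial membrane, and it differed little between tumors apart from 1 library. The FS held 144 CPM (S1-02), 42.8 CPM (S1-11), 60.8 CPM (S1-12) and 50.4 CPM (S2-06). The PNST ranged from 43.1 through a median of 45.8 to 60.5 CPM and the PWT from 38.4 through a median of 44.5 to 58.1 CPM. S1-02 stood far above every other tumor, S1-12 lay just above the highest PNST, and the remaining FS lay within the range of the other types. In FS against the other types it had a log2 fold change of 0.64 ± 0.25 (edgeR adjusted p-value 0.105), which was 0.09 (edgeR adjusted p-value 0.847) without S1-02. S1-02 also had the highest summed level of the 5 epidermal markers, 1361 CPM with all 5 detected, against 4.18 to 1230 CPM in the other tumors. Its 5 macrophage markers summed to 558 CPM, against 70.0 to 374 CPM elsewhere. The part of such cells in the *BCL2L1* level was not tested.

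*MCL1*, a short-lived anti-apoptotic protein that tumors often depend on, was highest in most PWT without passing the test. The FS held 281 CPM (S1-02), 219 CPM (S1-11), 269 CPM (S1-12) and 205 CPM (S2-06). The PNST ranged from 228 through a median of 276 to 348 CPM and the PWT from 232 through a median of 376 to 502 CPM. Of the 6 PWT, 5 lay above all 10 other tumors, and the exception was the reassigned tumor S2-08 at 232 CPM. In PWT against the other types the log2 fold change was 0.51 ± 0.18, or 1.43-fold, with an adjusted p-value of 0.119 from edgeR's quasi-likelihood test. DESeq2 gave the same size with an adjusted p-value of 0.0413, below the fold change that a call required. Against FS the value was 0.64 ± 0.24 (edgeR adjusted p-value 0.0791) and against PNST 0.43 ± 0.21 (edgeR adjusted p-value 0.257). With the prefix as a term it was 0.60 (edgeR adjusted p-value 0.392), and it lay between 0.42 and 0.75 under every one of the 27 alternatives.

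**Figure D2:**
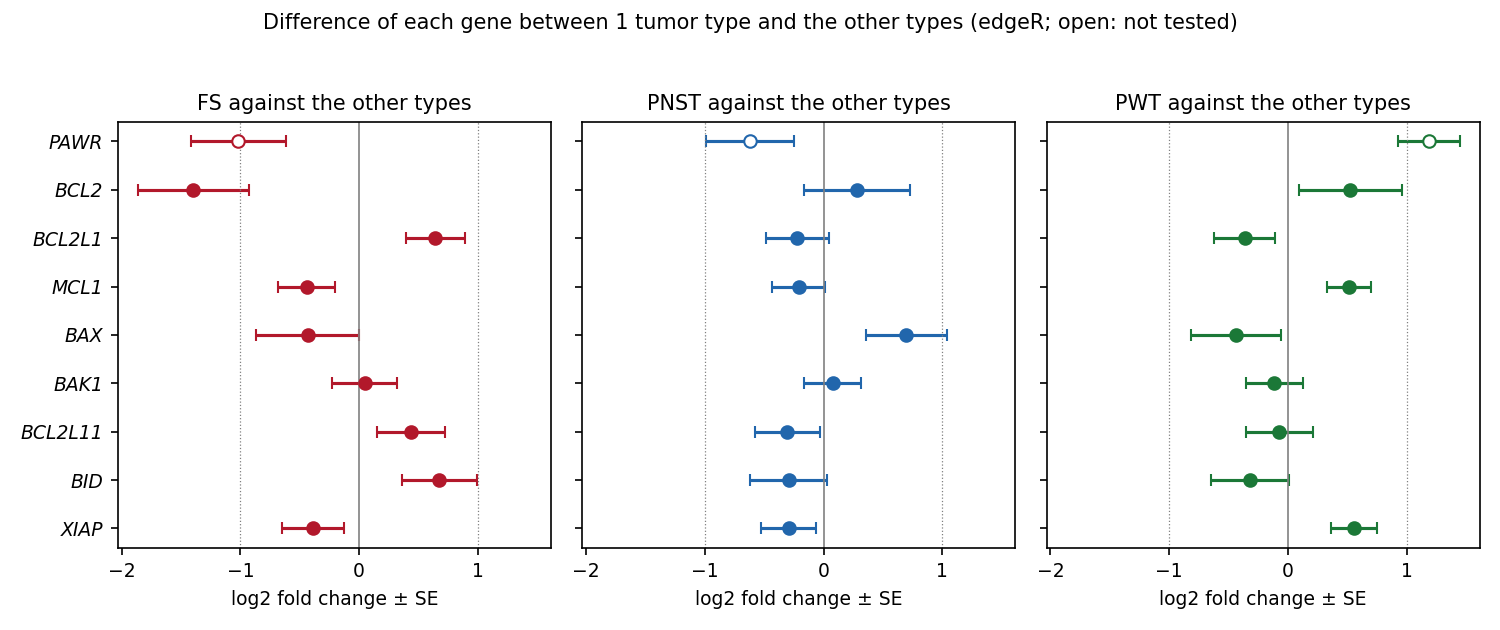
Log2 fold change (horizontal axis, with SE) of each of the 9 genes in 1 tumor type against the other types, from edgeR. Dotted lines mark an absolute log2 fold change of 1, and the open symbol marks *PAWR*, which was not tested in these contrasts. *BCL2* at −1.40 in FS is the only one of the other 8 genes beyond a dotted line.

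The effector genes *BAX* and *BAK1* encode the proteins that form the pore in the outer mitochondrial membrane. *BAX* was thinly covered, with 1 to 75 reads per tumor. The FS held 11.1 CPM (S1-02), 13.7 CPM (S1-11), 1.84 CPM (S1-12) and 4.28 CPM (S2-06), and the value of S1-12 rests on 1 read with a 95% Poisson interval of 0.0466 to 10.3 CPM. Levels lay in the PNST from 9.43 through a median of 11.7 to 22.6 CPM and in the PWT from 3.74 through a median of 8.13 to 14.2 CPM. All 6 PNST lay above the median of the other 10 tumors, and the types overlapped. For PNST against the other types the log2 fold change amounted to 0.70 ± 0.34, with an unadjusted p-value of 0.0570 and an adjusted p-value of 0.331 from edgeR's quasi-likelihood test. Without S1-09, the highest PNST, it was 0.49 (edgeR adjusted p-value 0.594).

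*BAK1* was the gene of the set with the smallest differences between types. Means were 22.6 ± 9.81 CPM in FS (SD, n = 4), 23.2 ± 5.18 CPM in PNST (n = 6) and 21.3 ± 6.89 CPM in PWT (n = 6). Single tumors ran from 12.7 CPM in the PWT S2-11 to 36.9 CPM in the FS S1-02. All 3 types covered most of that range. The log2 fold change was 0.04 ± 0.27 in FS, 0.08 ± 0.24 in PNST and −0.12 ± 0.24 in PWT against the other types, and the smallest adjusted p-value from edgeR's quasi-likelihood test was 0.812. Its direction turned with the normalization, the prefix term and single tumors, so no direction is given.

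The BH3-only genes act upstream of the effectors. *BCL2L11* encodes BIM, which binds every anti-apoptotic member of the family. The FS held 45.5 CPM (S1-02), 48.3 CPM (S1-11), 18.4 CPM (S1-12) and 51.8 CPM (S2-06). Values in the PNST ran from 17.9 through a median of 29.9 to 39.5 CPM and in the PWT from 15.7 through a median of 31.4 to 50.5 CPM. Of the FS, 3 lay above all 6 PNST, and S1-12, from 10 reads, lay below 5 of them. Log2 fold changes against the other types were 0.43 ± 0.29 in FS (edgeR adjusted p-value 0.371), −0.31 ± 0.27 in PNST (0.596) and −0.07 ± 0.28 in PWT (0.903).

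*BID*, which death receptor signalling cleaves to its active form, followed a like order. The FS held 31.9 CPM (S1-02), 22.5 CPM (S1-11), 7.37 CPM (S1-12) and 24.2 CPM (S2-06). Values in the PNST ran from 8.45 through a median of 12.8 to 21.7 CPM and in the PWT from 7.98 through a median of 13.1 to 20.2 CPM. Of the FS, 3 lay above all 12 other tumors, and S1-12 at 4 reads lay below them all. In FS against the other types the log2 fold change was 0.68 ± 0.32, with an unadjusted p-value of 0.0453 and an adjusted p-value of 0.184 from edgeR's quasi-likelihood test. Without S1-12 the value was 0.92 (edgeR adjusted p-value 0.0605), and without S1-02 it was 0.44 (edgeR adjusted p-value 0.498). S1-12 had the fewest reads of all tumors, and low counts of *BCL2*, *BAX*, *BCL2L11* and *BID* there carry the widest intervals relative to their level. In CPM the intervals of the PWT S2-04 were wider for these genes, such as 4.81 to 22.0 CPM for *BCL2* from 8 reads.

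*XIAP*, which blocks caspases directly, was high in PWT but also in the PNST with an S2 name. The FS held 45.2 CPM (S1-02), 32.9 CPM (S1-11), 57.1 CPM (S1-12) and 43.2 CPM (S2-06). The PNST ranged from 35.2 through a median of 45.8 to 77.3 CPM in S2-07, and the PWT from 47.6 through a median of 73.2 to 80.9 CPM. All 6 PWT lay above the median of the other tumors and 3 of them above all others. The 5 PNST with S1 names did not exceed 46.5 CPM. Against the other types, PWT had a log2 fold change of 0.55 ± 0.19, or 1.47-fold, with an adjusted p-value of 0.111 from edgeR's quasi-likelihood test. With the prefix as a term it was 0.30 (edgeR adjusted p-value 0.673), and in the S2 tumors alone 0.24 (edgeR adjusted p-value 0.834). Without S2-07 it was 0.67 (edgeR adjusted p-value 0.0400), still below the fold change that a call required. Against FS the value was 0.63 ± 0.26 (edgeR adjusted p-value 0.114), and against PNST 0.51 ± 0.22 (0.217). Most PWT carry S2 names, and tumor type and prefix can be told apart here only through the 3 tumors that cross them.

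By mean level the types stood in the order PWT, PNST, FS for *PAWR*, *BCL2*, *MCL1* and *XIAP*, and in the order FS, PNST, PWT for *BCL2L1* and *BID*. For *BCL2L11* the order was FS, PWT, PNST, for *BAX* PNST, PWT, FS and for *BAK1* PNST, FS, PWT. For the 8 genes other than *PAWR*, no pair of neighbours in these orders differed by the rule for calls. Over the 3 pairwise contrasts, 0 of the 8 genes were called by edgeR in PWT against FS, against 11.2% of all genes, and 4 had an unadjusted p-value under 0.05, against 29% of all genes. In PWT against PNST 0 of 8 were called, against 0.169% of all genes, and 1 had such a p-value, against 19.6%. In FS against PNST 0 of 8 were called, against 7.13% of all genes, and 2 had such a p-value, against 23.2%. DESeq2 called 1 of 8 in PWT against FS, *BCL2*, and none in the other pairs, against 12.2%, 3.38% and 8.84% of all genes. The median log2 fold change of the 8 genes was −0.17 in FS, −0.21 in PNST and −0.09 in PWT against the other types, beside medians of 0.00, −0.06 and −0.08 over all genes tested.

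Ratios of reads between members were taken within each tumor, where they do not depend on depth or scaling. They compare tumors for 1 pair of genes and are no measure of which gene of the pair is more abundant, since the lengths of the transcripts differ. The balance of the pro-apoptotic *BAX* to the anti-apoptotic *BCL2* was lowest in PWT, at 0.169 to 0.581 reads per read with a median of 0.515. Counts were low there as well, with 4 reads over 8 in S2-04, 5 over 13 in S2-11 and 10 over 59 in S2-09. It was 0.500 to 1.05 with a median of 0.737 in PNST, and 1.24, 1.04, 0.333 and 1.80 in the FS S1-02, S1-11, S1-12 and S2-06. The FS thus held both the highest ratios and, in S1-12 with 1 read over 3, one of the lowest. The ratio of *MCL1* to *BCL2L1*, both anti-apoptotic, was 4.72 to 13.1 with a median of 8.55 in PWT and 4.11 to 8.08 with a median of 5.38 in PNST. In the FS it was 1.95, 5.12, 4.42 and 4.07 in the same order. The ratio of *BCL2L1* to *BCL2* reached a median of 13.5 in FS against 2.31 in PNST and 3.19 in PWT, and the FS S1-11 at 3.25 was the exception. These ratios were not tested.

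**Figure D3:**
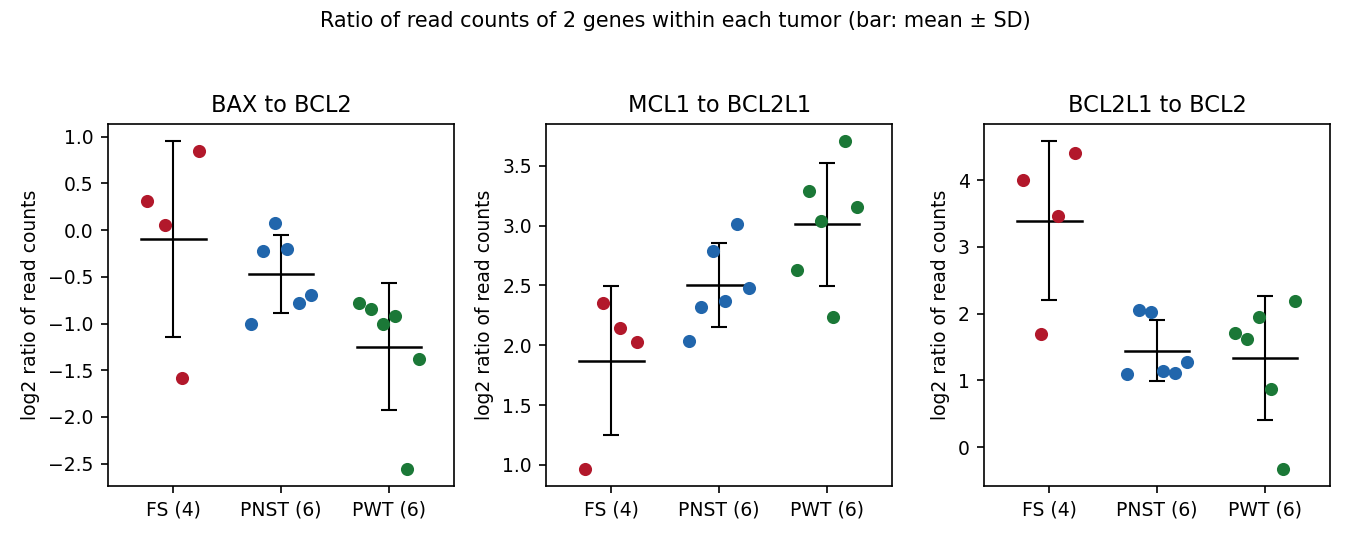
Log2 ratio of the read counts of a pair of genes within each tumor (vertical axis), by tumor type. Each point is a tumor and bars give the mean and SD. The 6 PWT have the lowest median of *BAX* to *BCL2* at 0.515, and the FS have the highest median of *BCL2L1* to *BCL2* at 13.5, with FS S1-11 apart at 3.25.

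How closely repeated runs of a tumor agreed was measured in the 9 tumors with S1 names. For this, the CPM of a run were taken on its counts over all genes, without TMM scaling, unlike the levels above. The coefficient of variation between the 3 runs of a tumor had a median of 9.27% for *MCL1*, 10.7% for *BCL2L1* and 12.7% for *PAWR*. Between those tumors the coefficient was 20.8%, 54.9% and 33.4%, above the median between runs, although for *MCL1* the runs of 1 tumor reached 20.9%. For *BCL2* the median between runs was 46.7% and the value between tumors 43.3%, and for *BCL2L11* these were 27.3% and 29.3%. On this unscaled measure a single run did not clearly resolve differences in *BCL2* or *BCL2L11* between these tumors. The tumors with S1 names enter as sums of 3 runs, which are less noisy. The 7 tumors with S2 names, among them 5 of 6 PWT, rest on 1 run each, and its repeatability could not be measured. In RefSeq genes of another dog assembly, UU_Cfam_GSD_1.0, other annotated loci overlap *BCL2* (4 loci) and *BCL2L1*, *MCL1*, *BAX*, *BAK1* and *BCL2L11* (1 locus each). Whether reads were counted by strand is not given in the sources used here, so counts of these genes carry that uncertainty.

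The wider pathway was described through 56 further apoptosis genes, of which 54 were in the file and 44 had enough reads to be tested. In FS against the other types, 3 of the 44 were called higher and none lower, or 6.82%, against 9.46% of all genes tested. None was called in PNST or in PWT against the other types, where 8 of 44 in each had an unadjusted p-value under 0.05, or 18.2%, against 15.7% and 22.4% of all genes. The 3 genes were *BCL2A1*, *FAS* and *PRKCI*.

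*BCL2A1*, a further anti-apoptotic relative of BCL2 that is typical of blood cells, had means of 22.4 ± 22.9 CPM in FS (SD, n = 4), 2.47 ± 2.62 CPM in PNST (n = 6) and 4.97 ± 5.78 CPM in PWT (n = 6). The FS split, with 43.0 CPM in S1-02 and 41.3 CPM in S2-06 but 3.29 CPM in S1-11 and 1.84 CPM in S1-12. Its log2 fold change in FS was 2.64 ± 0.82 (edgeR adjusted p-value 0.0466), and it was called under 9 of 26 alternatives. The 7 lymphocyte markers summed to 109 CPM in S1-02 with all 7 detected, 33.3 CPM in S2-06 with 6 detected, 25.2 CPM in S1-11 with 4 and 7.37 CPM in S1-12 with 2. They ranged from 8.15 to 60.3 CPM in the PNST and from 16.9 to 123 CPM in the PWT, and the PWT S2-03 at 123 CPM held 14.1 CPM of *BCL2A1*. Their part in this result was not tested. *FAS*, the death receptor that starts the extrinsic pathway, had a log2 fold change in FS of 1.32 ± 0.41 (edgeR adjusted p-value 0.0487) and was called under 7 of 27 alternatives. *PRKCI*, the atypical protein kinase C that PAWR binds, was the firmest of the 3.

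*PRKCI* held 35.1 CPM (S1-02), 37.3 CPM (S1-11), 64.5 CPM (S1-12) and 51.3 CPM (S2-06) in the FS. It held 8.75 to 19.3 CPM in the PNST and 8.36 to 32.3 CPM in the PWT. All 4 FS lay above all 12 other tumors, as they did for 1.56% of all genes tested. In FS its log2 fold change was 1.49 ± 0.30 (edgeR adjusted p-value 0.00373), and it was called under 26 of 27 alternatives, the exception being the grouping by histology (adjusted p-value 0.0721). The 5 proliferation markers were also high in FS, at 160 to 680 CPM against 71.0 to 112 CPM in PNST and 86.6 to 197 CPM in PWT, and their part in these differences was not tested.

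**Figure D4:**
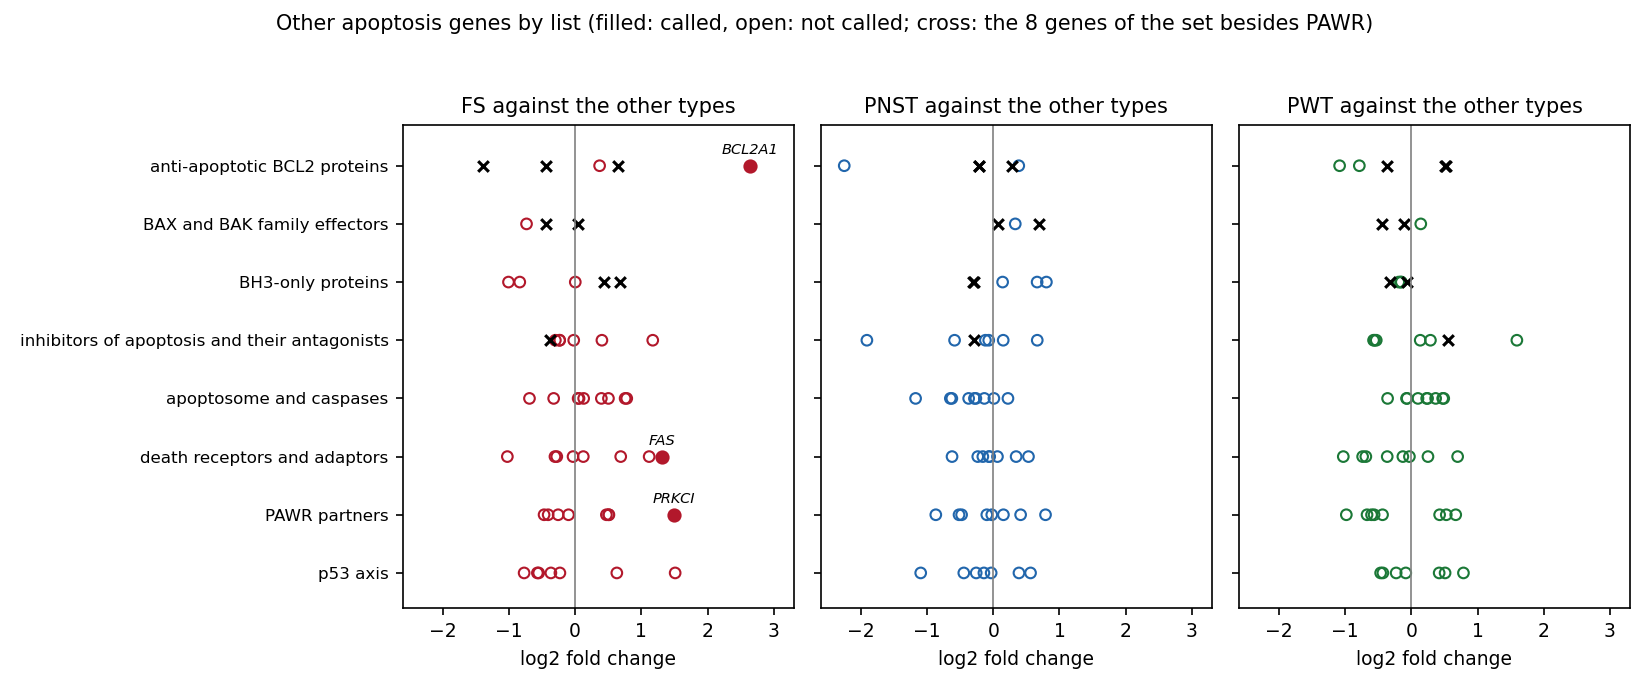
Log2 fold change (horizontal axis) of 44 further apoptosis genes in 1 tumor type against the other types, by list. Filled symbols are called genes, open symbols were not called, and crosses are the 8 genes of the set besides *PAWR*. Called genes are seen only in FS (*BCL2A1* at 2.64, *PRKCI* at 1.49 and *FAS* at 1.32).

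Over the 6 contrasts between 0% and 11.2% of all genes tested were called, and in lists of 3 to 9 genes a count of 0 or 1 called lies near these shares. Among the 5 anti-apoptotic BCL2 proteins in the file 1 was called higher in FS, *BCL2A1*, and *BCL2L2* had a log2 fold change of −0.79 ± 0.30 in PWT (edgeR adjusted p-value 0.135). Of 3 BAX and BAK family effectors and of 5 tested BH3-only proteins none was called in any of the 6 contrasts. The BH3-only genes *PMAIP1*, *BIK* and *HRK* had too few reads for a test. Of 7 tested inhibitors of apoptosis and their antagonists none was called in these contrasts. *BIRC5*, or survivin, which also works in mitosis, came closest in FS at 1.17 ± 0.38 (edgeR adjusted p-value 0.0518), which was 0.55 (0.423) without the FS S2-06. *BIRC3*, an inhibitor of apoptosis that NF-κB induces, had 1.59 ± 0.71 in PWT (edgeR adjusted p-value 0.193). This value rested on S2-03 at 252 CPM, against 2.73 to 44.6 CPM in the other 5 PWT, and was 0.04 (0.976) without it.

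Of the 9 apoptosome and caspase genes, *CYCS*, which encodes cytochrome c, was called in FS against PNST, with a log2 fold change of 1.35 ± 0.39 (edgeR adjusted p-value 0.0401), and in no other of the 6 contrasts. This call was kept under 14 of 27 alternatives. Its means were 22.5 ± 12.2 CPM in FS, 9.01 ± 3.79 CPM in PNST and 18.5 ± 6.11 CPM in PWT. Of 8 tested death receptors and adaptors only *FAS* was called. *TNFRSF1A*, the main receptor of tumor necrosis factor, had −0.74 ± 0.23 in PWT (edgeR adjusted p-value 0.0774).

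Of 8 tested partners of PAWR, *PRKCI* was called, higher in FS against the other types, higher in FS against PNST at 1.55 ± 0.35 (edgeR adjusted p-value 0.0123) and lower in PWT against FS at −1.41 ± 0.35 (0.0146). *DAPK3*, a kinase that PAWR recruits, had 0.79 ± 0.23 in PNST (edgeR adjusted p-value 0.170). In PWT, *AATF* had −0.60 ± 0.20 (edgeR adjusted p-value 0.0932) and *SQSTM1* −0.98 ± 0.33 (0.0987), both short of the threshold. Of the 8 partners, 1 was higher and 2 were lower there at an unadjusted edgeR p-value under 0.05, which 22.4% of all genes had. *WT1* and *PRKCZ*, other known partners, had too few reads to be tested. None of the 7 genes of the p53 axis was called. *MDM4*, which restrains p53, passed the p-value threshold in PWT at 0.79 ± 0.17 (edgeR adjusted p-value 0.0281) but not the fold change, and without S2-03 its adjusted p-value was 0.0557. It held 174 to 258 CPM in the PWT and 73.9 to 144 CPM in the other types, without overlap. Of all genes tested, 0.467% lay above all other tumors in every PWT.

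*SAMD8*, *UBXN2A* and *SRGN*, which the study lists under apoptosis with *PAWR*, were also chosen from these tumors and are described only. The study lists *SAMD8* and *UBXN2A* as higher in PWT, like *PAWR*, and *SRGN* as lower in PNST. *UBXN2A* had means of 44.8 ± 11.0 CPM in PWT, 22.4 ± 4.80 CPM in PNST and 14.6 ± 3.69 CPM in FS. *SAMD8* had means of 70.7 ± 22.9 CPM in PWT, 35.9 ± 4.33 CPM in PNST and 34.6 ± 11.8 CPM in FS. *SRGN*, the gene of the granule proteoglycan serglycin, had means of 31.6 ± 27.0 CPM in FS, 4.69 ± 3.00 CPM in PNST and 26.2 ± 30.5 CPM in PWT, where S2-03 alone held 86.0 CPM.

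The genes whose log2 CPM most resembled those of each member over the 16 tumors were listed by Pearson's r, as a description over points that share library, depth and tumor type. For *PAWR* they were *CLCA4* (r = 0.942), the small nucleolar RNA gene *LOC119866652* (0.928), *FRS2* (0.909), *UBXN2A* (0.896) and *RPAP3* (0.892). With the mean of each type removed these 5 values were 0.846, 0.794, 0.731, 0.690 and 0.749. Without S1-11 and S2-11, the tumors farthest from the median of *PAWR*, they lay between 0.833 and 0.921 (n = 14).

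For *XIAP* the closest genes were *EXOSC3* (r = 0.920) and the microRNA gene *MIR1839* (0.911). Those for *BCL2* were *PREP* (0.850) and *ZFP37* (0.833), and those for *MCL1* were the noncoding genes *LOC111093795* (0.851) and *LOC119863990* (0.823). *BAX* was closest to *TK2* (0.886) and *IL4I1* (0.872), and *BAK1* to *MAPKAPK3* (0.846) and *LOC484867* (0.836). *BCL2L11* was closest to *CH25H* (0.870) and *LONRF3* (0.836), and *BID* to *ANXA9* (0.837) and *ITPR2* (0.830). Each r was also taken without the 2 tumors farthest from the median of the member (n = 14). These values lay between 0.657 for *BCL2* with *ZFP37* and 0.889 for *XIAP* with *MIR1839*. For *MCL1* with *LOC111093795* it was 0.724 and for *BID* with *ANXA9* 0.726.

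The likeness of *BCL2L1* to *CTSB*, the gene of the lysosomal protease cathepsin B (r = 0.861), rested on single tumors. *CTSB* held 9920 CPM in S1-02 against 210 to 734 CPM in the other 15 tumors. Without S1-02 and S1-12, the tumors farthest from the median of *BCL2L1*, r was 0.171 (n = 14). For the second gene, *LOC119873708*, it went from 0.856 to 0.639.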

How the data were processed

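Read counts per gene were deposited by the authors, who aligned Ion Proton reads to the dog genome ROS-canfam-01 with STAR and counted them with htseq-count, without normalization. Of the reads listed, 22.9% to 30.6% per tumor were on genes, and rows that name no gene were left out. Runs of a tumor were summed. Tumors were grouped by molecular identity. Genes with at least 10 reads in at least 4 tumors were kept, and counts were TMM-normalized and tested with edgeR 4.0.16 (R 4.3.3) by its quasi-likelihood test, each type against the other types and each pair of types in a fit of all 16 tumors. Differences were called at a Benjamini-Hochberg adjusted p-value under 0.05 over all genes tested and an absolute log2 fold change above 1. DESeq2 1.42.0, which the study used, was an alternative. The test was checked on simulated counts with 200 changed genes per contrast. For FS against the other types it recovered 75% of them among 14879 genes, and 2.60% of its calls were false. Over all contrasts, recovery ran from 71.5% (PWT against FS) to 83% (PNST against the other types). False calls reached 4.03% (PWT against FS). These shares hold only for the sizes of change that were simulated. They do not give the power for changes of the size seen in the set besides *PAWR*. Log2 CPM for likeness used a prior count of 2.

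The 9 genes and all lists were chosen with earlier results of these data known. The p-values set each difference against the spread between tumors within groups. These groups rest in part on the same counts, and S1-04 and S1-05, which may come from 1 dog, were kept as 2 tumors. Named were the 9 genes, every called gene of a list and otherwise at most the 2 with the smallest p-values per contrast, the 5 genes most like *PAWR* and the 2 most like each other gene, and *SAMD8* and *UBXN2A*. *SRGN* was named as a called gene of the study's own list. *HRK*, *PMAIP1*, *BIK*, *WT1* and *PRKCZ* were named as not tested. A result that this rule would name is not reported here. Alternatives were other normalizations, no filter, DESeq2, the prefix as a term, grouping by histology, without both reassigned tumors, S1-04 and S1-05 summed, 1 run per S1 tumor and leaving out each tumor. S1 or S2 tumors alone and leaving out the 2 shallowest tumors (S1-12 and S2-04) were chosen after the data were seen.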

Additional observations from a re-analysis of the deposited data

Results flagged for a closer look

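Within 27 sets of values (9 genes in 3 tumor types), the highest and lowest tumor were compared with the nearest of the others, and 2 tumors stood apart by Dixon's 95% criterion, which chance passes in about 1 of 20 sets. *BAX* was 22.6 CPM in the PNST S1-09, with a gap to the next PNST of 0.637 of the group's range. *XIAP* was 77.3 CPM in the PNST S2-07, with a gap of 0.733 of the range, and S2-07 is the only PNST with an S2 name.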

How the results depend on the processing

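No paired analysis was possible because the replicate numbers follow the order of the samples and pair no tumors. Over 28 alternative settings the count of called genes besides *PAWR* was 0 in all contrasts, with 1 exception: DESeq2 called 1 gene in FS against the other types and 1 in PWT against FS, both times *BCL2*, at log2 fold changes of −1.37 and 1.45. Of 992 recomputed fold changes, 18 turned direction, 17 of them to a size of at most 0.11 and 1 to −0.31. For *BAK1* in FS these were −0.011 with upper-quartile normalization, −0.011 with the prefix as a term, −0.026 by histology and −0.0090 without both reassigned tumors, in PNST −0.031 with the prefix as a term and −0.11 in the S1 tumors alone, and in PWT 0.058 with the prefix as a term. In the S1 tumors alone *XIAP* in FS was 0.022 and *MCL1* in PNST 0.0026, and in the S2 tumors alone *BAX* in PWT was 0.057. Leaving out single tumors gave −0.31 (without S1-02) to 0.18 for *BAK1* in FS, −0.046 (without S1-04) to 0.20 for *BAK1* in PNST, −0.30 to 0.054 (without S1-02) for *BCL2L1* in PNST and −0.25 to 0.071 (without S2-11) for *BCL2L11* in PWT; the cause was not tested. Without S2-09 the log2 fold change of *BCL2* in PWT was 0.12 in place of 0.53. Read counts limited *BAX*, *BCL2* and *BID* most, with as few as 1, 3 and 4 reads in S1-12. *BCL2* in FS was −1.43 with the prefix as a term (edgeR adjusted p-value 0.0713), and *BCL2* in PWT was 1.08 in the S2 tumors alone (edgeR adjusted p-value 0.676).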
